A study of Mus musculus with 32 samples.

Results

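The genes described here build the chondroitin sulfate chains of cartilage, supply their sulfate, or remove sulfate from a related chain: Xylt1, Csgalnact1 and Chsy1, Chst11 and Chst3, Slc26a2, Papss1 and Papss2, and Sulf1 and Sulf2. The 10 genes were listed by name and the list used no measured threshold, though it was drawn up with earlier results of these data known. All 10 symbols were found among the 41388 genes counted in each library. They were followed in RNA sequencing of 32 libraries from primary mouse chondrocytes, by genotype and treatment. The paper calls the cells sternal, and its methods give sterna and ribs as their source. Expression is given as CPM, each library's counts scaled to a common total after TMM normalization, and fold changes are on that scale.

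Chondrocytes came from C57BL/6 newborn pups, were grown without passaging in DMEM with 10% fetal bovine serum at normoxia, and fell into 16 groups of 2 libraries. Wild-type cells, which received no virus, were left untreated, given FX11 (40 µM), an inhibitor of lactate dehydrogenase A, given the inflammatory cytokine IL-1β (10 ng/mL), or given both for 24 h. Cells of 3 further lines carried a floxed allele, LDHA flox (here Ldha f/f), NAMPT flox (Nampt f/f) or NFKBIZ flox (Nfkbiz f/f). They were infected for 24 h with adenovirus carrying eGFP (GFP) or Cre and eGFP (Cre), and were then kept for 24 h with or without IL-1β. Ldha encodes lactate dehydrogenase A, Nampt the enzyme that salvages nicotinamide for NAD+, and Nfkbiz the NF-κB cofactor IκB-ζ. Cre was delivered by virus to the whole culture, and the promoter that drove it is not given in the sources used here. Cells that received Cre virus without a floxed allele were not analysed here, so Cre virus and deletion cannot be told apart. The labels do not say whether the 2 libraries of a group came from separate cultures or litters, and p-values measure the spread between these libraries only.

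Chondroitin sulfate is a chain of repeating disaccharides attached to a core protein, above all aggrecan, and its negative charge draws water into cartilage. A xylosyltransferase starts each chain on the core protein, further enzymes complete a short linker and add the first N-acetylgalactosamine, and polymerases lengthen the chain. Sulfate enters the cell through transporters, is activated to PAPS, the universal sulfate donor, and is placed on the chain by sulfotransferases in the Golgi apparatus. Sulf1 and Sulf2 are a pair of secreted enzymes that remove 6-O-sulfate from heparan sulfate, a related chain, and they are not enzymes of chondroitin synthesis.

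Library totals ranged from 15830658 to 39959888 counts with a median of 25363482, and the 10 genes were counted with between 31 reads (Chst3, lowest library) and 39463 reads (Papss2, highest library). The titles number 2 sets of libraries. Every condition has 1 library in each set, except that the Nfkbiz f/f libraries are all from set 2. In each pair of values given for Ldha f/f and Nampt f/f the first is from set 1 and the other from set 2. The deleted genes followed their labels. With IL-1β, Ldha was at 1557 and 1547 CPM in GFP and 81.3 and 72.9 CPM in Cre libraries of Ldha f/f. Nampt was at 67.4 and 68.4 against 5.70 and 4.63 CPM in Nampt f/f, and Nfkbiz at 235 and 229 against 29.5 and 32.3 CPM in Nfkbiz f/f. All 13 chondrocyte markers, among them Acan, Col2a1 and Sox9, were detected in all 32 libraries, and their summed level ran from 15820 to 110700 CPM. The summed levels of other cell types' markers were lower, at 13.8 to 263.7 CPM for 7 macrophage genes, 2.58 to 26.7 CPM for 5 endothelial genes and 11.1 to 164.8 CPM for 5 muscle genes. They were 5.91 to 64.1 CPM for 5 osteoblast genes and 398.8 to 5761 CPM for 6 fibroblast genes. Single genes carried much of some sums, as Col1a1 alone reached 5579 CPM among the fibroblast genes and Kdr 21.8 CPM among the endothelial genes. Cdh5 was at 0 in 1 library, Tie1 in 3, Myod1 in 3, Myog in 1, Ckm in 8 and Dmp1 in 5. In these bulk samples, fewer cells of a type and less RNA per cell cannot be told apart. Among the wild-type libraries of set 2, the library labelled FX11 had 2016 CPM of Mmp3, a matrix-degrading enzyme that IL-1β strongly induces, and that labelled IL-1β had 0.784 CPM. Both go against their labels and are treated apart.

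In the 6 GFP libraries without IL-1β, levels differed widely between the genes when divided by exonic length. Papss2 was the highest of the 10 with a median of 148.1 CPM per kilobase (141 to 270.5). Next came Xylt1 at 77.9, Sulf2 at 68.6, Chst11 at 53.6, Csgalnact1 at 25.6, Papss1 at 22.7, Slc26a2 at 20.5, Chsy1 at 15.3, Sulf1 at 5.92 and Chst3 at 0.727 CPM per kilobase (0.637 to 0.795). Several neighbours in this order overlapped. Xylt1 spanned 71.5 to 130.7, Sulf2 58.2 to 96.4 and Chst11 51.1 to 92.8 CPM per kilobase. Csgalnact1 (23.0 to 42.9), Papss1 (21.8 to 24.9), Slc26a2 (17.6 to 33.9) and Chsy1 (14.6 to 19.5) also ran into one another. Sulf1 (5.58 to 6.60) and Chst3 lay below all the others, and Papss2 above all.

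**Figure D1:**
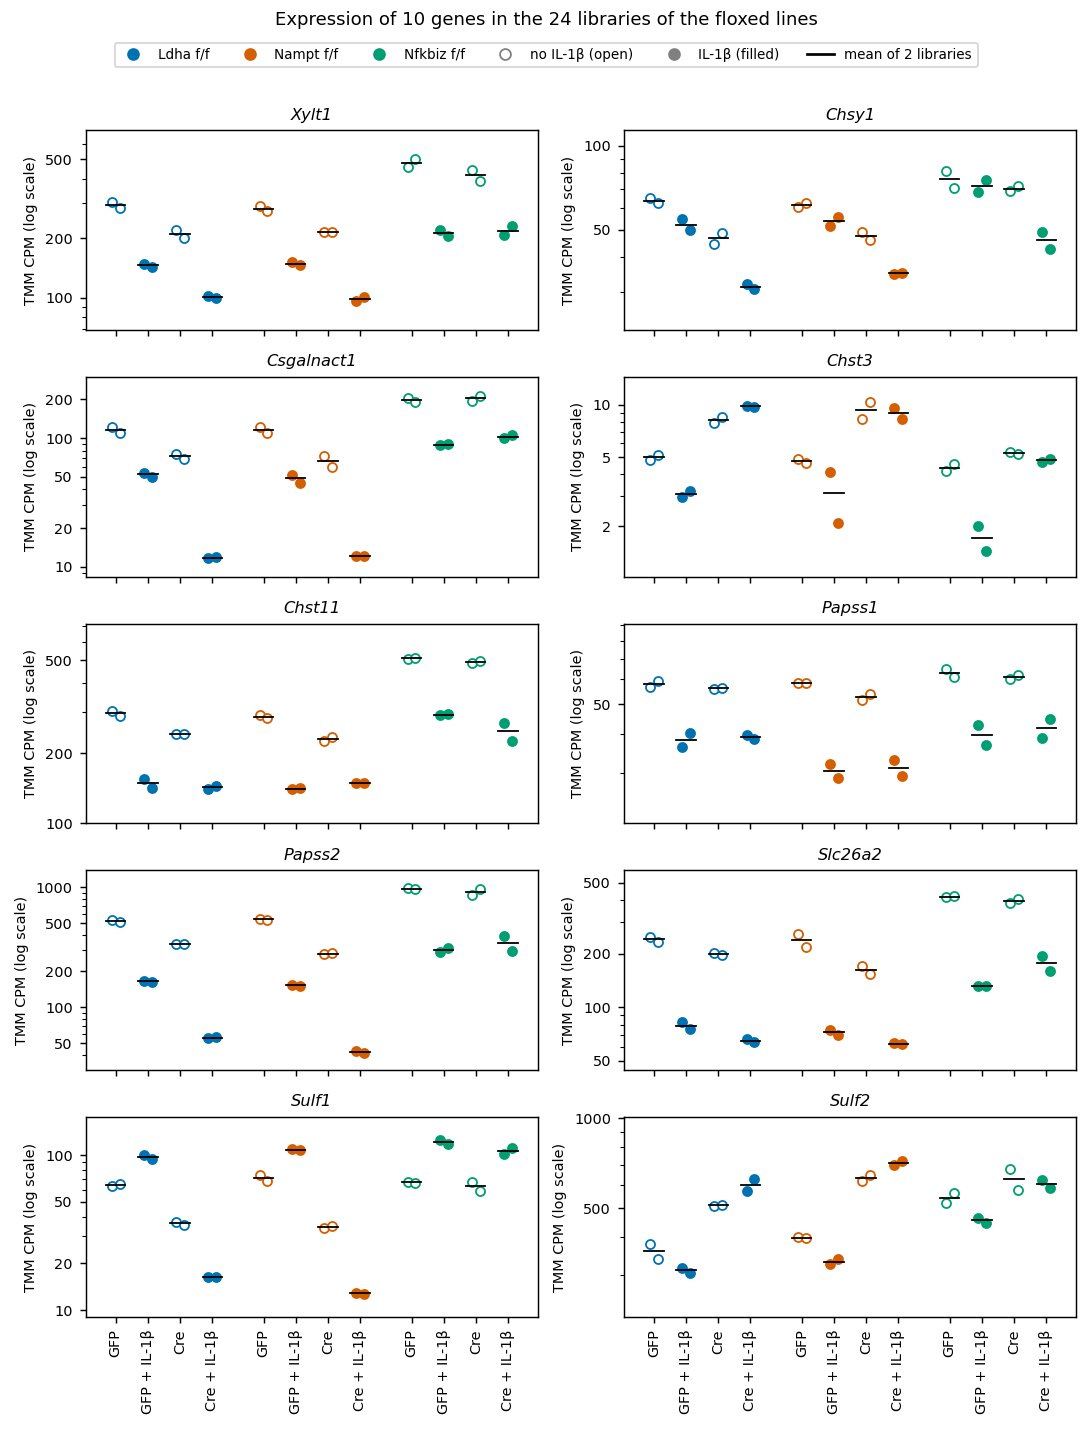
TMM-scaled CPM (vertical axis, log scale) of the 10 genes in the 24 libraries of the floxed lines, by virus and IL-1β (horizontal axis), with open circles without and filled circles with IL-1β and bars for the mean of 2 libraries. Papss2 and Csgalnact1 reach their lowest levels in Cre libraries of Ldha f/f and Nampt f/f with IL-1β, and Sulf1 rises with IL-1β in all 6 GFP libraries but is at 12.7 to 16.4 CPM in those 4 Cre libraries.

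The first comparison asked how IL-1β changed these genes in cells with the floxed allele intact. In the GFP libraries of the 3 lines, 6 with and 6 without IL-1β, 9 of the 10 genes fell and 1, Sulf1, rose. Of all 14283 genes tested, 56.2% were called at an adjusted p of 0.05 or less, 28.0% higher and 28.3% lower. The median log2 fold change of the 10 genes was -0.88, and that of all genes tested was -0.0083. Acan, the core protein that carries most chondroitin sulfate in cartilage, fell 4.27-fold (log2 fold change -2.09 ± 0.06 SE, edgeR's quasi-likelihood test with Benjamini-Hochberg adjustment, adjusted p = 6.31e-14). All 13 chondrocyte markers fell as well, with a median log2 fold change of -1.42. Their summed level was 78780 to 103200 CPM without and 29050 to 36640 CPM with IL-1β. Of 5 macrophage markers tested 4 rose, and all 7 on the list summed to 13.8 to 25.4 CPM without and 32.2 to 65.9 CPM with IL-1β. The muscle markers summed to 69.99 to 94.15 CPM without and 11.1 to 34.1 CPM with IL-1β. The osteoblast and fibroblast sums were lower with IL-1β in each line. The endothelial sum was higher in Ldha f/f and Nampt f/f and overlapped in Nfkbiz f/f. The part of all these markers in the changes below was not tested.

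Sulfate supply held the steepest falls among the 10 genes. Slc26a2 (chromosome 18, 61192919 to 61211612, minus strand, GRCm38) is the plasma membrane sulfate transporter of chondrocytes. Without IL-1β it was at 248.7 and 233 CPM in Ldha f/f, 259 and 218 CPM in Nampt f/f, and 415 and 419 CPM in Nfkbiz f/f. With IL-1β it was at 82.2 and 75.3, 74.4 and 70.0, and 132 and 132 CPM in the same order of lines. All 6 treated libraries lay below all 6 untreated ones, and Slc26a2 fell 3.15-fold (log2 fold change -1.65 ± 0.04, adjusted p = 2.22e-15 by edgeR's quasi-likelihood test with Benjamini-Hochberg adjustment).

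Papss2 (chromosome 19, 32620005 to 32667187, plus strand) encodes the PAPS synthase that predominates in cartilage. Its untreated libraries were at 528 and 513, 541 and 535, and 983 and 964 CPM, and its treated ones at 166 and 163, 154 and 152, and 289 and 311 CPM. It fell 3.28-fold, again without overlap between treated and untreated libraries (log2 fold change -1.71 ± 0.04, adjusted p = 2.28e-15, same test). Papss1 (chromosome 3, 131564768 to 131643670, plus strand) encodes the more widely expressed PAPS synthase. It went from 56.6 and 59.2, 58.6 and 58.4, and 64.7 and 60.9 CPM to 36.3 and 40.3, 32.1 and 29.0, and 42.8 and 37.0 CPM. This was a smaller, 1.64-fold fall (log2 fold change -0.71 ± 0.06, adjusted p = 2.7e-08, same test).

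The stretches before the start sites of the PAPS synthase pair, whose genes fell to different extents, and of Chst3, which fell with IL-1β in GFP cells and was higher with Cre, are shown to let their composition be compared. RefSeq promoter windows for GRCm38.p6 were found for 6 of the 10 genes and not for Xylt1, Csgalnact1, Slc26a2 and Sulf1. The 250 bases end just before the start site (Papss2 chr19:32619755-32620004, plus strand; Papss1 chr3:131564518-131564767, plus strand; Chst3 chr10:60219261-60219510, minus strand), are written 5′ to 3′, and carry in capitals every match, on either strand, to an NF-κB-type motif of GGG, any 5 bases and CC. Matches may overlap.
Papss2: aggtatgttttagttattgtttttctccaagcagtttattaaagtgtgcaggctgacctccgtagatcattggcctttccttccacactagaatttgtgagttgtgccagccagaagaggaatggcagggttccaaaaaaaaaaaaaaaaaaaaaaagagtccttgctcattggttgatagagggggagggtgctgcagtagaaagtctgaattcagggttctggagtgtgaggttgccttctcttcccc
Papss1: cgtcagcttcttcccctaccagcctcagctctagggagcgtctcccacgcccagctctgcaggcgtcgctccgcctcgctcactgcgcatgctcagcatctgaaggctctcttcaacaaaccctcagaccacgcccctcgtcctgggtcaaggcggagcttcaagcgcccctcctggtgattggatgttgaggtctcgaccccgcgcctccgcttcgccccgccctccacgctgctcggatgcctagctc
Chst3: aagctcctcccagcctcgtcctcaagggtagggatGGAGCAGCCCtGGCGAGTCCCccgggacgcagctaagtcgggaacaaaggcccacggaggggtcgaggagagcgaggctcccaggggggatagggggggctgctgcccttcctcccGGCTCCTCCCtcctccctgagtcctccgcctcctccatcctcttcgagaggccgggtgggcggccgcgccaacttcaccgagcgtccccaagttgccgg
Over the whole windows, which also hold the first 50 bases of the transcript, G and C made up 44.3% in this Papss2 window, 66.3% in that of Papss1 and 70.0% in that of Chst3. Chst3 held 3 matches to the motif, and these Papss2 and Papss1 windows held 0. A further Papss2 window, upstream, held 2, the Chst11 window 3 and the Sulf2 windows 1 and 5. At least 1 match was held by 50.8% of 32851 mouse promoter windows of the same length. The AP-1 motif TGANTCA (7.81% of windows) and the SOX motif ACAATGG (3.66%) were found in 0 of the 9 windows, and the TATA motif TATAAA (13.6%) in 1 of Sulf2. These matches describe the letters only.

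The enzymes that start and lengthen the chain fell unevenly. Xylt1 (chromosome 7, 117380979 to 117667751, plus strand) places the first xylose on the core protein. In the same order of lines it went from 306 and 285, 289 and 273, and 459.7 and 499.7 CPM to 149 and 144, 151 and 146, and 219 and 206 CPM. Csgalnact1 (chromosome 8, 68356781 to 68735146, minus strand) commits the linker to chondroitin by adding the first N-acetylgalactosamine. It went from 122 and 110.4, 123 and 110.0, and 205 and 191 CPM to 54.1 and 50.3, 52.1 and 45.1, and 88.6 and 89.3 CPM. Xylt1 fell 2.04-fold (log2 fold change -1.03 ± 0.05) and Csgalnact1 fell 2.26-fold (-1.18 ± 0.04), with adjusted p = 1.28e-11 and 2.05e-13 by edgeR's quasi-likelihood test with Benjamini-Hochberg adjustment. Chsy1 (chromosome 7, 66109515 to 66173789, plus strand), one of the polymerases, moved little, from 65.1 and 62.2, 60.7 and 62.3, and 81.1 and 70.5 CPM to 54.6 and 49.8, 51.8 and 55.8, and 68.5 and 75.5 CPM. Treated and untreated libraries overlapped in Nfkbiz f/f, and Chsy1 fell 1.13-fold (log2 fold change -0.17 ± 0.05, adjusted p = 0.0127, same test). It was no longer called without Ldha f/f GFP replicate 1 (adjusted p = 0.0579) or without Ldha f/f GFP with IL-1β replicate 2 (adjusted p = 0.0696). An exon of Gm26827 overlaps Chsy1 on the other strand, and whether reads were counted by strand is not given in the sources used here.

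Both sulfotransferases fell. Chst11 (chromosome 10, 82985498 to 83195900, plus strand), which places sulfate on the 4-O position of N-acetylgalactosamine, went from 302 and 289.9, 291 and 282, and 507 and 513 CPM to 154 and 142, 139.7 and 142, and 290.5 and 294 CPM. It fell 1.90-fold (log2 fold change -0.93 ± 0.04, adjusted p = 2.07e-11 by edgeR's quasi-likelihood test with Benjamini-Hochberg adjustment). Chst3 (chromosome 10, 60181532 to 60219260, minus strand), which sulfates the 6-O position, was far lower, at 4.82 and 5.17, 4.87 and 4.63, and 4.14 and 4.56 CPM without and 2.94 and 3.20, 4.13 and 2.10, and 2.00 and 1.44 CPM with IL-1β. Its fall of 1.79-fold had the widest error of the 10 genes (log2 fold change -0.84 ± 0.17, adjusted p = 0.000504, same test), and 1 Nampt f/f library with IL-1β (4.13 CPM) lay just under the lowest untreated one (4.14 CPM).

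The endosulfatases moved in opposite directions. Sulf1 (chromosome 1, 12692277 to 12861192, plus strand) went from 63.0 and 65.4, 74.6 and 68.5, and 67.4 and 66.3 CPM to 100.3 and 94.6, 109.0 and 108.5, and 126 and 119 CPM, higher in all 6 treated libraries than in any untreated one. It rose 1.63-fold (log2 fold change 0.70 ± 0.05, adjusted p = 4.06e-09 by edgeR's quasi-likelihood test with Benjamini-Hochberg adjustment). Sulf2 (chromosome 2, 166073089 to 166155663, minus strand) fell 1.17-fold (log2 fold change -0.23 ± 0.04, adjusted p = 0.000122, same test), from 379 and 338.5, 401 and 397, and 522.5 and 561 CPM to 316 and 303, 324 and 339, and 466 and 446 CPM. An exon of Ncoa3 overlaps Sulf2 on the other strand.

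Line by line, IL-1β called 9 of the 10 genes in Ldha f/f (1 higher and 8 lower), against 27.9% of 15880 genes (14.5% higher, 13.3% lower). It called 8 in Nampt f/f (1 higher and 7 lower), against 35.0% of 16136 genes (17.7% higher, 17.3% lower). In Nfkbiz f/f it called 8 (1 higher and 7 lower), against 26.8% of 15356 genes (15.2% higher, 11.7% lower). Papss2, Slc26a2, Csgalnact1, Xylt1, Chst11 and Papss1 fell and Sulf1 rose in each line. The gene outside the count in Ldha f/f was Sulf2 (log2 fold change -0.21, adjusted p = 0.0751, edgeR's quasi-likelihood test with Benjamini-Hochberg adjustment). The others were Chsy1 (-0.17, 0.102) and Chst3 (-0.55, 0.136) in Nampt f/f, and Chsy1 (-0.06, 0.74) and Sulf2 (-0.23, 0.138) in Nfkbiz f/f. With the library set as a block, Sulf2 in Ldha f/f (adjusted p = 0.0125) and Chsy1 (0.0329) and Chst3 (0.0451) in Nampt f/f were called. Sulf2 in Ldha f/f was also called by DESeq2 (adjusted p = 0.0322) and by edgeR with 24 libraries in one model (0.0478). In Nfkbiz f/f, Sulf2 was called by limma (0.0306) and by edgeR with 24 libraries in one model (0.022). Chst3 in Nampt f/f was called by edgeR without a filter (0.0471). The other settings that kept all libraries did not call these genes. In Ldha f/f, Chsy1 (main log2 fold change -0.29) lost its call without GFP replicate 1 (adjusted p = 0.106), GFP with IL-1β replicate 1 (0.0506) or replicate 2 (0.164), and Chst3 (main -0.71) without GFP with IL-1β replicate 1 (0.0722). In Nampt f/f, leaving out GFP with IL-1β replicate 1 brought Chst3 to a call (log2 fold change -1.15, adjusted p = 0.014) and took that of Sulf2 (-0.20, 0.0747), while without replicate 2 of that group the Chst3 value was -0.19, not called.

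A test of the difference in response between lines called 0 of the 10 genes for Nampt f/f against Ldha f/f with edgeR's quasi-likelihood test (0.012% of 16727 genes called). It called 0 for Nfkbiz f/f against Ldha f/f (2.42%) and 0 for Nfkbiz f/f against Nampt f/f (4.01%). Unadjusted p-values of 0.05 or less numbered 1, 1 and 3 of the 10 genes, DESeq2 called 0 in each, and limma called 0, 0 and 1, the last being Xylt1. In the third of these comparisons, leaving out Nampt f/f GFP with IL-1β replicate 2 brought 1 call, Chst3 (difference -1.19, adjusted p = 0.0423, against -0.81 with all libraries), and leaving out replicate 1 of that group gave -0.16, not called. The estimates for Papss2 were -0.13 ± 0.13, -0.03 ± 0.13 and 0.10 ± 0.13 on the log2 scale. Those for Sulf1 were 0.03 ± 0.10, 0.28 ± 0.10 and 0.25 ± 0.10.

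**Figure D2:**
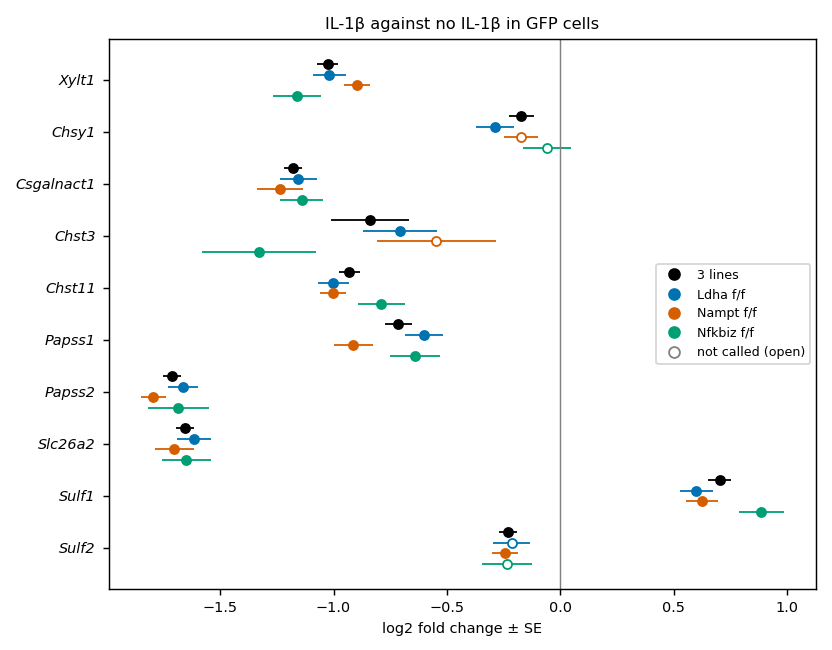
Log2 fold change with IL-1β (horizontal axis, ± SE) of the 10 genes in GFP cells, over the 3 lines together (black) and in each line (colours), with open circles where the adjusted p was above 0.05. Papss2 and Slc26a2 lie between -1.61 and -1.79 in each line, Chsy1 and Sulf2 close to 0, and Sulf1 is the gene to the right of 0, at 0.60 to 0.89.

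The pathway around these genes was examined with 8 lists that together held 71 further genes, 63 of them tested. With IL-1β in the GFP cells of the 3 lines, 14 of the 63 rose, 27 fell and 22 were not called, and their median log2 fold change was -0.05. Over all genes tested, 28.0% were called higher and 28.3% lower. Of the 9 genes tested for sulfate uptake and PAPS supply 0 rose and 6 fell, 3 of the 6 being Slc26a2, Papss1 and Papss2, and of the 10 for UDP-sugar supply 2 rose and 7 fell. The linker enzymes (1 of 7 rose, 3 fell), the chondroitin polymerases (2 of 6 rose, 3 fell), and the chondroitin and dermatan sulfotransferases and epimerases (2 of 9 rose, 3 fell) were mixed. So were the heparan sulfate chain enzymes (6 of 14 rose, 6 fell), the heparan endosulfatases with the sulfatase-activating factors (1 of 4 rose, 3 fell) and the lysosomal enzymes (1 of 14 rose, 5 fell). These counts include the 10 genes where a list holds them.

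Among these further genes, several were called with a log2 fold change of at least 1 in either direction. Slc35d1, the Golgi and endoplasmic reticulum transporter of UDP-sugars for chondroitin synthesis, fell 2.20-fold (log2 fold change -1.14 ± 0.05, from 69.8 to 85.6 CPM down to 32.5 to 37.5 CPM over the 6 libraries). The heparan sulfate enzymes Hs3st3a1, a 3-O-sulfotransferase (-1.52 ± 0.13), and Extl1, a glycosyltransferase (-1.07 ± 0.06), fell, and Ndst3, an N-deacetylase and N-sulfotransferase, rose 2.82-fold (1.50 ± 0.23). Ndst3 was low, at 0.312 to 2.58 CPM without and 2.35 to 9.63 CPM with IL-1β. Hs3st3a1 was at 4.94 to 9.41 CPM without and 1.88 to 3.61 CPM with IL-1β. Slc13a4, a sodium sulfate cotransporter, fell on low values (-1.19 ± 0.41, adjusted p = 0.0214 by edgeR's quasi-likelihood test with Benjamini-Hochberg adjustment, 0.0807 to 1.89 CPM without IL-1β).

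The second comparison asked what Cre did to these genes without IL-1β. In Ldha f/f 9 of the 10 genes were called, 2 higher and 7 lower. Of 15880 genes 5.52% were called (877, or 1994 with the library set as a block), 3.43% higher and 2.09% lower. The same 9 genes were called in Nampt f/f in the same directions, 2 higher and 7 lower. Of 16136 genes 14.4% were called (2319, or 4311 with the block), 8.3% higher and 6.07% lower. The remaining gene was Papss1. It was at 56.6 and 59.2 CPM with GFP and 55.9 and 56.4 CPM with Cre in Ldha f/f (log2 fold change -0.06), and at 58.6 and 58.4 against 51.4 and 53.7 CPM in Nampt f/f (-0.16). In Nfkbiz f/f 0 of the 10 genes were called by edgeR's quasi-likelihood test, 0 had an unadjusted p of 0.05 or less, and DESeq2 and limma called 0 each. Of 15356 genes, 0.26% (40) were called. The median log2 fold change of the 10 genes was -0.39 in Ldha f/f, -0.39 in Nampt f/f and -0.07 in Nfkbiz f/f, against -0.02, -0.02 and -0.0023 over all genes tested.

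Sulf1 showed the steepest change with Cre alone among the 10 genes. It went from 63.0 and 65.4 to 37.0 and 35.6 CPM in Ldha f/f (log2 fold change -0.84 ± 0.07, adjusted p = 0.000213, edgeR's quasi-likelihood test with Benjamini-Hochberg adjustment). It went from 74.6 and 68.5 to 34.0 and 35.1 CPM in Nampt f/f (-1.06 ± 0.07, adjusted p = 5.18e-06, same test). Papss2 went from 528 and 513 to 337 and 336 CPM (-0.65 ± 0.07) and from 541 and 535 to 275 and 283 CPM (-0.96 ± 0.05). Csgalnact1 went from 122 and 110.4 to 75.6 and 69.1 CPM (-0.70 ± 0.08) and from 123 and 110.0 to 72.3 and 59.6 CPM (-0.83 ± 0.10). All these Cre libraries lay below all GFP libraries of their line. Smaller falls were called for Xylt1 (-0.51 and -0.40), Chsy1 (-0.47 and -0.37), Slc26a2 (-0.30 and -0.56) and Chst11 (-0.31 and -0.33).

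The genes that were higher with Cre were Chst3 and Sulf2. Chst3 went from 4.82 and 5.17 to 7.85 and 8.50 CPM in Ldha f/f (log2 fold change 0.69 ± 0.15) and from 4.87 and 4.63 to 8.27 and 10.3 CPM in Nampt f/f (0.95 ± 0.24). Sulf2 went from 379 and 338.5 to 508 and 514 CPM (0.49 ± 0.08) and from 401 and 397 to 617 and 644 CPM (0.65 ± 0.06). The count of 9 in Ldha f/f fell to 4 without Cre replicate 1, to 5 without Cre replicate 2 or GFP replicate 1 and to 7 without GFP replicate 2. Chst3 and Chst11 lost their calls in all 4 refits (adjusted p = 0.0513 to 0.189, edgeR's quasi-likelihood test with Benjamini-Hochberg adjustment). Slc26a2 lost its call in 3 of them (0.17 to 0.23), and Chsy1 (0.0603 and 0.11) and Sulf2 (0.0581 and 0.0617) in 2 each. Chst3 lost its call in Nampt f/f without Cre replicate 2 (adjusted p = 0.143), GFP replicate 1 (0.0945) or GFP replicate 2 (0.0765), and Chsy1 without Cre replicate 2 (0.0605, same test).

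Chondrocyte markers summed to 57960 to 58180 CPM with Cre against 79870 to 79890 CPM with GFP in Ldha f/f. They summed to 54930 to 55610 against 78780 to 79820 CPM in Nampt f/f and to 78570 to 93690 against 90530 to 103200 CPM in Nfkbiz f/f. Endothelial markers summed to 10.6 to 11.4 CPM against 3.43 to 3.64 CPM in Ldha f/f. They summed to 14.1 to 14.2 against 3.73 to 4.63 CPM in Nampt f/f and to 2.58 to 4.71 against 3.83 to 4.64 CPM in Nfkbiz f/f. The muscle, osteoblast and fibroblast sums were lower with Cre in Ldha f/f and Nampt f/f and overlapped in Nfkbiz f/f. These sums moved in the lines in which the 10 genes moved, and their part in the result was not tested.

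With IL-1β present, Cre called 8 of the 10 genes in Ldha f/f (2 higher and 6 lower), against 34.0% of 15880 genes (16.9% higher, 17.0% lower). In Nampt f/f it called 7 (2 higher and 5 lower), against 48.4% of 16136 genes (25.0% higher, 23.4% lower). The median log2 fold change of the 10 was -0.38 in both lines, against -0.02 and -0.03 over all genes tested. Xylt1, Chsy1, Csgalnact1, Papss2 and Sulf1 fell and Chst3 and Sulf2 rose in both lines, Slc26a2 fell in Ldha f/f, and Chst11 and Papss1 were called in neither.

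Sulf1 fell furthest. From 100.3 and 94.6 CPM with GFP it went to 16.4 and 16.3 CPM with Cre in Ldha f/f, a 5.87-fold fall (log2 fold change -2.55 ± 0.08, adjusted p = 3.47e-08 by edgeR's quasi-likelihood test with Benjamini-Hochberg adjustment). The Nampt f/f libraries went from 109.0 and 108.5 to 12.9 and 12.7 CPM, an 8.39-fold fall (-3.07 ± 0.08, adjusted p = 1.24e-09, same test). The Sulf1 mean with IL-1β was 1.52 times the untreated mean in GFP cells of both lines, and 0.45 and 0.37 times it in Cre cells. The test of this difference in response gave -1.71 ± 0.11 in Ldha f/f (adjusted p = 1.64e-05) and -2.01 ± 0.10 in Nampt f/f (adjusted p = 1.17e-06, same test).

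Csgalnact1 and Papss2 were lower with IL-1β in either state, and the step down was larger with Cre. Csgalnact1 stood at 54.1 and 50.3 CPM with GFP and at 11.7 and 11.9 CPM with Cre in Ldha f/f (log2 fold change -2.12 ± 0.09), and at 52.1 and 45.1 against 12.1 and 12.1 CPM in Nampt f/f (-1.99 ± 0.11). Untreated over treated, its ratio was 2.22 with GFP and 6.11 with Cre in Ldha f/f and 2.40 and 5.43 in Nampt f/f. Papss2 stood at 166 and 163 CPM with GFP and at 55.5 and 56.6 CPM with Cre in Ldha f/f (-1.53 ± 0.07), and at 154 and 152 against 43.4 and 42.1 CPM in Nampt f/f (-1.82 ± 0.06). Its ratio went from 3.16 with GFP to 6.00 with Cre and from 3.52 to 6.53. From untreated GFP cells to IL-1β-treated Cre cells, the Papss2 level went from 528 and 513 to 55.5 and 56.6 CPM in Ldha f/f and from 541 and 535 to 43.4 and 42.1 CPM in Nampt f/f. The differences in response were -1.42 ± 0.12 and -1.17 ± 0.15 for Csgalnact1 (adjusted p = 9.64e-05 and 0.000348, edgeR's quasi-likelihood test with Benjamini-Hochberg adjustment). For Papss2 they were -0.88 ± 0.09 and -0.86 ± 0.08 (adjusted p = 0.00034 and 3.61e-05, same test).

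Xylt1 and Chsy1 were lower with Cre, and the test called no difference in their IL-1β response. Xylt1 was at 149 and 144 CPM with GFP and 102 and 100.3 CPM with Cre in Ldha f/f (log2 fold change -0.51 ± 0.07) and at 151 and 146 against 96.3 and 101 CPM in Nampt f/f (-0.58 ± 0.06). Chsy1 was at 54.6 and 49.8 against 31.98 and 30.7 CPM (-0.71 ± 0.08) and at 51.8 and 55.8 against 34.7 and 35.2 CPM (-0.60 ± 0.08). The differences in response were 0.0012 ± 0.11 and -0.17 ± 0.08 for Xylt1 and -0.25 ± 0.12 and -0.23 ± 0.11 for Chsy1, with adjusted p between 0.157 and 0.997 by edgeR's quasi-likelihood test with Benjamini-Hochberg adjustment. With the library set as a block the Xylt1 difference in Nampt f/f was called (adjusted p = 0.0274).

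Chst3 and Sulf2 were higher with Cre. Chst3 stood at 2.94 and 3.20 CPM with GFP and 9.86 and 9.74 CPM with Cre in Ldha f/f (log2 fold change 1.70 ± 0.16, adjusted p = 3.26e-05 by edgeR's quasi-likelihood test with Benjamini-Hochberg adjustment). It was at 4.13 and 2.10 against 9.58 and 8.34 CPM in Nampt f/f (1.50 ± 0.25). Sulf2 stood at 316 and 303 against 573 and 627 CPM (0.98 ± 0.08) and at 324 and 339 against 700.0 and 721 CPM (1.12 ± 0.06). With IL-1β the Sulf2 mean was 0.865 and 0.831 times the untreated mean in GFP cells and 1.17 and 1.13 times it in Cre cells. The differences in response were 0.48 ± 0.11 and 0.46 ± 0.08 for Sulf2 (adjusted p = 0.0226 and 0.00236) and 1.01 ± 0.22 and 0.55 ± 0.35 for Chst3 (adjusted p = 0.0168 and 0.3, same test). Without Nampt f/f GFP with IL-1β replicate 1, the library with 4.13 CPM, the Chst3 difference in Nampt f/f was 1.10 (adjusted p = 0.0464), and without replicate 2 of that group it was 0.19, not called.

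Chst11, Papss1 and Slc26a2 moved little. Chst11 was at 154 and 142 CPM with GFP and 141 and 144 CPM with Cre in Ldha f/f, and at 139.7 and 142 against 149 and 149 CPM in Nampt f/f. Papss1 was at 36.3 and 40.3 against 39.8 and 38.7 CPM and at 32.1 and 29.0 against 33.1 and 29.4 CPM. Slc26a2 was at 82.2 and 75.3 against 66.5 and 63.5 CPM in Ldha f/f (log2 fold change -0.26 ± 0.07, adjusted p = 0.0226 by edgeR's quasi-likelihood test with Benjamini-Hochberg adjustment). The call was lost without Cre with IL-1β replicate 2 (0.0918) or GFP with IL-1β replicate 1 (0.107). In Nampt f/f it was at 74.4 and 70.0 against 63.0 and 62.1 CPM (-0.19 ± 0.09, adjusted p = 0.0921, and 0.00342 with the library set as a block). This Slc26a2 change was also called with 24 libraries in one model (adjusted p = 0.023, same test) and without ribosomal protein genes and Gm26917 (0.0357). DESeq2, limma, RLE scaling and no filter did not call it. The difference in response was called for Chst11 in Nampt f/f (0.43 ± 0.08, adjusted p = 0.00322), and with the block also for Chst11 in Ldha f/f (0.28, adjusted p = 0.0188) and Slc26a2 in Nampt f/f (0.37, adjusted p = 0.000112). DESeq2 also called the Slc26a2 difference (0.36, adjusted p = 0.0302), as did edgeR without a filter (0.39, 0.00838) and with 24 libraries in one model (0.32, 0.0325). It was not called by limma, with RLE scaling or without ribosomal protein genes and Gm26917.

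In total the response to IL-1β differed between Cre and GFP for 5 of the 10 genes in Ldha f/f, 2 higher and 3 lower. Of all genes 11.5% were called (1825, or 3374 with the block), 5.89% higher and 5.6% lower. The response differed in Nampt f/f for 5, 2 higher and 3 lower, against 22.0% of all genes (3552, or 5648 with the block), 12.0% higher and 9.98% lower. Sulf1, Csgalnact1, Papss2 and Sulf2 were among the 5 in both. In Ldha f/f the count fell to 3 without Cre replicate 1, Cre with IL-1β replicate 2 or GFP with IL-1β replicate 1, where Chst3 and Sulf2 lost their calls (adjusted p = 0.0591 to 0.104, edgeR's quasi-likelihood test with Benjamini-Hochberg adjustment). Chst3 alone lost it without Cre with IL-1β replicate 1 (0.0634), and Sulf2 alone without Cre replicate 2 (0.0723), GFP replicate 1 (0.0566) or GFP with IL-1β replicate 2 (0.0788). Over the same groups the summed chondrocyte markers went from 29490 to 30000 CPM with GFP to 15820 to 16970 CPM with Cre in Ldha f/f, with 11 of 13 markers called lower. The Nampt f/f sums went from 29050 to 29900 CPM to 16940 to 17440 CPM, with 10 called lower. Endothelial markers summed to 4.90 to 5.83 CPM with GFP and 16.9 to 21.2 CPM with Cre in Ldha f/f, and to 6.92 to 7.57 and 23.3 to 26.7 CPM in Nampt f/f. Over the 32 libraries Kdr alone reached 21.8 CPM, and the next highest endothelial gene, Cdh5, reached 5.77 CPM. The macrophage, muscle, osteoblast and fibroblast sums were lower with Cre in both lines. The part of all these markers in the result was not tested.

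**Figure D3:**
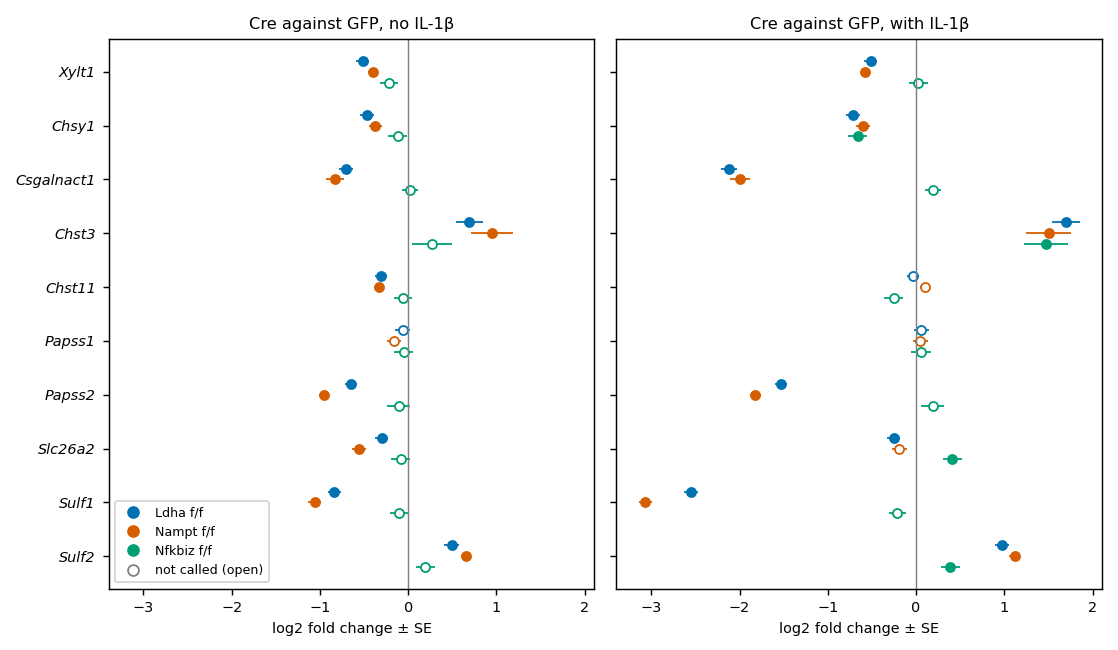
Log2 fold change of Cre against GFP (horizontal axis, ± SE) for the 10 genes without IL-1β (left) and with IL-1β (right), by line, with open circles where the adjusted p was above 0.05. In Ldha f/f and Nampt f/f, Sulf1, Csgalnact1 and Papss2 lie further to the left with IL-1β than without it, down to -3.07 for Sulf1, and the Nfkbiz f/f points without IL-1β are all open.

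Nfkbiz f/f cells gave other values. Of the libraries with Cre and IL-1β there, replicate 2 stood apart, with 11.9% of its counts from Gm26917 against 5.14% to 9.36% in the other libraries of the series, and 0.538% from mitochondrial genes against 1.39% to 2.19%. With IL-1β, Cre called 4 of the 10 genes in Nfkbiz f/f, 3 higher and 1 lower, or 5 without that library, against 17.4% of 15356 genes (8.16% higher, 9.2% lower). Chst3 rose from 2.00 and 1.44 CPM with GFP to 4.68 and 4.91 CPM with Cre (log2 fold change 1.47 ± 0.25, adjusted p = 0.00136, edgeR's quasi-likelihood test with Benjamini-Hochberg adjustment). Slc26a2 rose from 132 and 132 to 194 and 160.4 CPM (0.41 ± 0.11, adjusted p = 0.0187, same test), and Sulf2 from 466 and 446 to 622 and 584 CPM (0.39 ± 0.11, adjusted p = 0.0276). Chsy1 fell from 68.5 and 75.5 to 49.3 and 42.9 CPM (-0.66 ± 0.11, adjusted p = 0.00108). Sulf1 was at 126 and 119 CPM with GFP and 102 and 111.5 CPM with Cre. Csgalnact1 was at 88.6 and 89.3 against 100.4 and 105 CPM, and Papss2 at 289 and 311 against 394.5 and 296 CPM, with adjusted p of 0.168, 0.195 and 0.375. With 24 libraries in one model, edgeR's quasi-likelihood test also called Csgalnact1 (log2 fold change 0.21, adjusted p = 0.0365) and Chst11 (-0.24, adjusted p = 0.015). Without replicate 1 or replicate 2 of GFP with IL-1β the count was 2. Slc26a2 then gave 0.41 and 0.41 (adjusted p = 0.137 and 0.139) and Sulf2 0.42 and 0.35 (0.143 and 0.213). Slc26a2 also lost its call without Cre with IL-1β replicate 1, where its log2 fold change was 0.27 (adjusted p = 0.0545). Without Cre with IL-1β replicate 1 Chst11 was called (log2 fold change -0.39, adjusted p = 0.00916), and without replicate 2 Papss2 was (0.38, 0.0273).

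The response to IL-1β differed between Cre and GFP for 0 of the 10 genes in Nfkbiz f/f by edgeR's quasi-likelihood test, where 5.19% of 15356 genes were called (1.69% higher, 3.5% lower). Chst3 (1.20 ± 0.34, unadjusted p = 0.00384), Chsy1 (-0.54 ± 0.15, 0.0039) and Slc26a2 (0.50 ± 0.15, 0.00599) were the 3 with an unadjusted p of 0.05 or less in that fit across all genes. DESeq2 and limma each called 1, which was Slc26a2 (adjusted p = 0.0333 and 0.0375), and with all 24 libraries of the floxed lines in one model 3 were called. Without Cre with IL-1β replicate 1 Chsy1 was called (adjusted p = 0.0127), and without replicate 2 Slc26a2 was (0.00798). The summed chondrocyte markers were 34180 to 36640 CPM with GFP and 40180 to 43460 CPM with Cre, and endothelial markers 3.43 to 4.41 and 6.96 to 7.74 CPM. The muscle, osteoblast and fibroblast sums were higher with Cre and the macrophage sum was lower, and their part was not tested.

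Whether Cre acted differently between the lines was tested over the 24 libraries of the floxed lines in one model. With IL-1β, the Cre effect in Nfkbiz f/f differed from that in Ldha f/f for 6 of the 10 genes, 5 higher and 1 lower, against 27.0% of 16727 genes (14.0% higher, 13.0% lower). From that in Nampt f/f it differed for 7, 5 higher and 2 lower, against 36.3% (18.6% higher, 17.6% lower). The difference from Ldha f/f was 2.38 ± 0.11 for Sulf1, 2.35 ± 0.11 for Csgalnact1, 1.76 ± 0.13 for Papss2, 0.70 ± 0.11 for Slc26a2, 0.57 ± 0.11 for Xylt1 and -0.55 ± 0.11 for Sulf2 on the log2 scale. From Nampt f/f it was 2.90 ± 0.11, 2.23 ± 0.11, 2.05 ± 0.13, 0.65 ± 0.11, 0.65 ± 0.11 and -0.68 ± 0.11 for the same genes, and -0.31 ± 0.10 for Chst11. The Chst11 call was lost in 4 of 8 refits that left out 1 library (adjusted p = 0.0547 to 0.0969, edgeR's quasi-likelihood test with Benjamini-Hochberg adjustment). The smallest p-values were those of Sulf1 (adjusted p = 1.78e-13 and 5.39e-15 by edgeR's quasi-likelihood test with Benjamini-Hochberg adjustment). Chst3 and Chsy1, which moved with Cre in all 3 lines, were not called in this test. The differences were -0.20 ± 0.33 and 0.02 ± 0.31 for Chst3 and 0.09 ± 0.12 and -0.01 ± 0.12 for Chsy1.

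Without IL-1β the Cre effect in Nfkbiz f/f differed from that in Ldha f/f for 3 genes, all higher (1.9% of 16727 genes called, 0.855% higher). These were Sulf1 (0.73 ± 0.11), Csgalnact1 (0.72 ± 0.10) and Papss2 (0.53 ± 0.12). From that in Nampt f/f it differed for 5, 4 higher and 1 lower (5.04%, with 2.43% higher and 2.61% lower), Sulf1 (0.96 ± 0.11), Csgalnact1 (0.85 ± 0.10), Papss2 (0.85 ± 0.12), Slc26a2 (0.47 ± 0.10) and Sulf2 (-0.46 ± 0.11). The Papss2 call against Ldha f/f was lost in 7 of 8 refits that each left out 1 library, all but that without Nfkbiz f/f Cre replicate 1 (adjusted p = 0.0542 to 0.115, edgeR's quasi-likelihood test with Benjamini-Hochberg adjustment). The count of 5 against Nampt f/f fell to 3 without Nampt f/f Cre replicate 2 or Nampt f/f GFP replicate 1, and the Sulf2 call was lost in 5 of 8 such refits (0.0543 to 0.0891). Between Nampt f/f and Ldha f/f, 0 of the 10 genes differed without IL-1β (0.0897% of genes called, 3 of the 10 at an unadjusted p of 0.05 or less, 0 by DESeq2 and by limma). With IL-1β 1 did, Sulf1, which was lower (-0.52 ± 0.12, adjusted p = 0.0377, with 0.538% of genes called and 0.227% lower). It was not called with the replicate number as a block (0.0602) or in any of the 8 refits that left out 1 library (0.109 to 0.191). Ldha f/f and Nampt f/f libraries share 2 library sets and Nfkbiz f/f libraries come from 1. The summed fibroblast markers were 1560 to 3656 CPM in Ldha f/f and Nampt f/f and 398.8 to 658.7 CPM in Nfkbiz f/f. Most of this sum is Col1a1, at 345.2 to 5579 CPM over the 32 libraries, and the next highest, Pdgfra, was at 14.3 to 168.1 CPM. The part of these markers in the differences from Nfkbiz f/f was not tested.

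The differences from Nfkbiz f/f were also taken within set 2 alone, which holds all 3 lines in 16 libraries, a choice made after seeing the data. In this fit the lone libraries of Ldha f/f and Nampt f/f are assumed to vary like the pairs of Nfkbiz f/f. In set 2, Sulf1 with IL-1β was at 94.6 CPM with GFP and 16.3 CPM with Cre in Ldha f/f, at 108.5 and 12.7 CPM in Nampt f/f, and at 126 and 119 against 102 and 111.5 CPM in Nfkbiz f/f. The difference of Nfkbiz f/f from Ldha f/f within the set was 2.33 ± 0.18 for Sulf1, 2.27 ± 0.18 for Csgalnact1 and 1.72 ± 0.23 for Papss2 (adjusted p = 1e-05, 1e-05 and 0.000439, edgeR's quasi-likelihood test with Benjamini-Hochberg adjustment). From Nampt f/f it was 2.89 ± 0.19, 2.10 ± 0.18 and 2.04 ± 0.23 for the same genes. Slc26a2 and Sulf2 were called in both as well, and Xylt1 in neither (0.55 and 0.57, adjusted p = 0.0909 and 0.0528, same test), so 5 of the 10 genes were called against each line. Without IL-1β, the count within the set was 0 against Ldha f/f and 1 against Nampt f/f, Csgalnact1 (0.90 ± 0.16, adjusted p = 0.0355). The values there were 0.78 and 0.85 for Sulf1 and 0.50 and 0.80 for Papss2.

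The other genes of the pathway lists moved with Cre in part. With IL-1β, 9 of the 64 tested rose, 15 fell and 40 were not called in Ldha f/f, against 16.9% higher and 17.0% lower over all genes. In Nampt f/f 24 rose, 18 fell and 22 were not called (25.0% higher and 23.4% lower over all genes). In Nfkbiz f/f 6 rose, 9 fell and 49 were not called (8.16% and 9.2%). Without IL-1β 2 rose and 6 fell in Ldha f/f (3.43% and 2.09%), and 6 rose and 14 fell in Nampt f/f (8.3% and 6.07%). In Nfkbiz f/f 0 of 64 were called without IL-1β, against 0.26% of all genes. Chsy3, a further chondroitin polymerase, fell 4.52-fold in Ldha f/f (log2 fold change -2.18 ± 0.12, from 30.3 and 35.0 to 7.08 and 7.14 CPM) and 5.63-fold in Nampt f/f (-2.49 ± 0.12, from 32.9 and 37.6 to 6.18 and 6.22 CPM). In Nfkbiz f/f it fell 1.33-fold (-0.41 ± 0.11). The Chsy3 response to IL-1β with Cre minus that with GFP was -1.60 ± 0.16 in Ldha f/f and -1.79 ± 0.15 in Nampt f/f (adjusted p = 0.000286 and 2.72e-05, edgeR's quasi-likelihood test with Benjamini-Hochberg adjustment), and -0.29 ± 0.15 in Nfkbiz f/f (adjusted p = 0.343). Chst15, which adds a second sulfate at the 6-O position of 4-O-sulfated residues, rose 3.32-fold in Nampt f/f (1.73 ± 0.13, from 5.87 and 6.17 to 19.1 and 20.4 CPM). It rose 2.45-fold in Ldha f/f (1.29 ± 0.14), and its log2 fold change of 0.21 in Nfkbiz f/f was not called.

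Ndst3, which rose with IL-1β in GFP cells, was lower with Cre in Ldha f/f (log2 fold change -1.48 ± 0.32) and Nampt f/f (-2.40 ± 0.27). These were low values, at 1.29 to 1.91 CPM with Cre in Ldha f/f and 1.285 to 1.96 CPM in Nampt f/f. Hyal1, a hyaluronidase, rose with Cre in all 3 lines, 2.73-fold in Ldha f/f (1.45 ± 0.14), 2.14-fold in Nampt f/f (1.10 ± 0.16) and 2.55-fold in Nfkbiz f/f (1.35 ± 0.17). Of the 14 lysosomal enzymes that break down these chains, 6 rose and 1 fell in Ldha f/f, 9 rose and 1 fell in Nampt f/f, and 4 rose and 1 fell in Nfkbiz f/f, where 16.9%, 25.0% and 8.16% of all genes were called higher. Ugp2, which makes UDP-glucose, and Ext1, a heparan sulfate polymerase, fell in Nfkbiz f/f (-0.72 ± 0.12 and -0.66 ± 0.09). Both fell in the other lines too, Ugp2 with log2 fold changes of -0.99 in Ldha f/f and -1.14 in Nampt f/f, and Ext1 with -0.84 and -0.99.

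**Figure D4:**
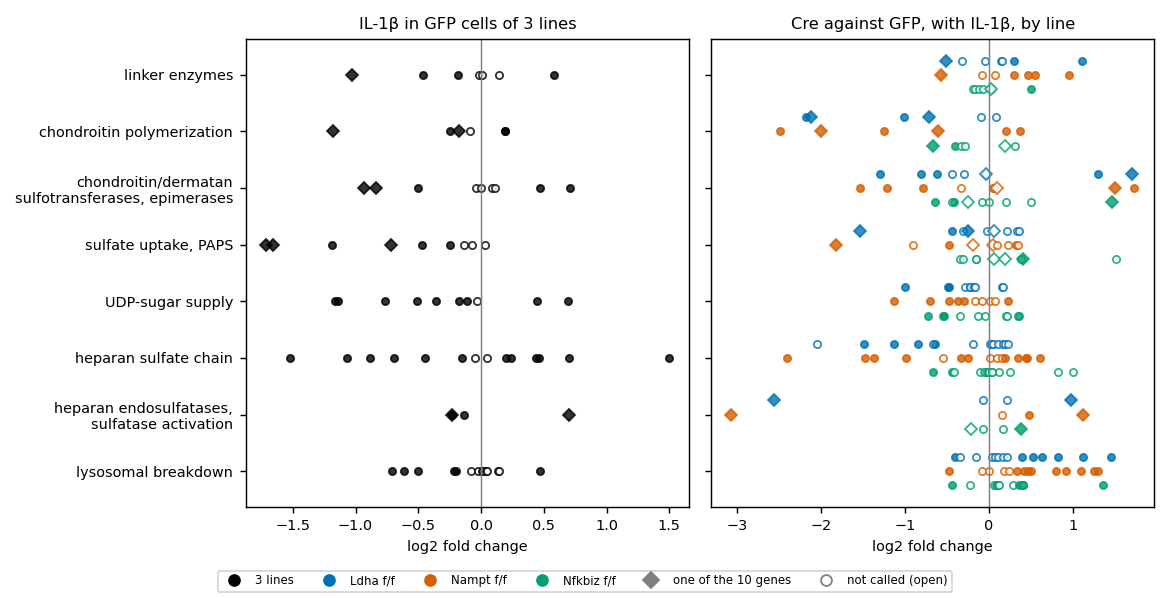
Log2 fold change (horizontal axis) of every tested gene of the 8 pathway lists (vertical axis), with IL-1β in GFP cells of the 3 lines (left) and with Cre against GFP under IL-1β in each line (right), with diamonds for the 10 genes and open symbols where the adjusted p was above 0.05. On the left, 6 of 9 genes of sulfate uptake and PAPS supply lie to the left of 0 as filled symbols and 0 to the right, and on the right most filled lysosomal genes lie to the right of 0.

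Wild-type cells, which carried no virus, were at odds between the library sets. In set 1, from untreated to IL-1β, Papss2 went from 1165 to 268 CPM, Slc26a2 from 391 to 137 CPM, Xylt1 from 562 to 264 CPM, Csgalnact1 from 122 to 64.8 CPM and Sulf1 from 35.3 to 77.8 CPM. In set 2 the library labelled IL-1β stood at 782, 302, 516, 136 and 31.5 CPM for the same genes, against 1067, 391, 627, 175 and 24.6 CPM untreated. The library labelled FX11 in set 2 stood at 425, 220.0, 251, 92.3 and 42.4 CPM, and that with both agents at 329.5, 130.3, 171, 79.0 and 54.5 CPM. FX11 alone in set 1 left Papss2 at 1079 CPM and Slc26a2 at 369.6 CPM, and IL-1β with FX11 left them at 317 and 158 CPM, next to 268 and 137 CPM with IL-1β alone.

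With all 8 wild-type libraries 0 of the 10 genes were called by edgeR's quasi-likelihood test for IL-1β, FX11, both agents, or FX11 added to IL-1β, where 0.0% of 15461 genes were called in each. Unadjusted p-values of 0.05 or less were found for 0, 0, 6 and 0 of the 10 genes and 153, 68, 860 and 102 of all genes, and DESeq2 and limma called 0 of the 10 in each. On counts simulated with the spread of these libraries, the IL-1β test recovered 0% of 100 genes with a log2 change of 1. The absence of calls in wild-type cells therefore does not show that the genes were unchanged. The log2 fold changes with IL-1β were -1.08 ± 0.60 for Papss2, -0.83 ± 0.42 for Slc26a2 and 0.87 ± 0.43 for Sulf1. Without the libraries labelled FX11 and IL-1β of set 2, a choice made after seeing the data, they were -2.06 ± 0.30, -1.51 ± 0.27 and 1.38 ± 0.31 (adjusted p = 0.165, 0.215 and 0.311, edgeR's quasi-likelihood test with Benjamini-Hochberg adjustment). In that fit, which assumes that a lone library varies like the other groups, 0 of the 10 genes and 1 of 15268 genes were called. FX11 added to IL-1β then gave 0.28 ± 0.27 for Papss2, 0.09 ± 0.25 for Slc26a2 and -0.29 ± 0.32 for Sulf1. In it 0 genes were called, with 117 of 15268 at an unadjusted p of 0.05 or less. Macrophage markers summed to 94.7 to 263.7 CPM in wild-type cells against 13.8 to 65.9 CPM in the floxed lines, and their part was not tested.

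**Figure D5:**
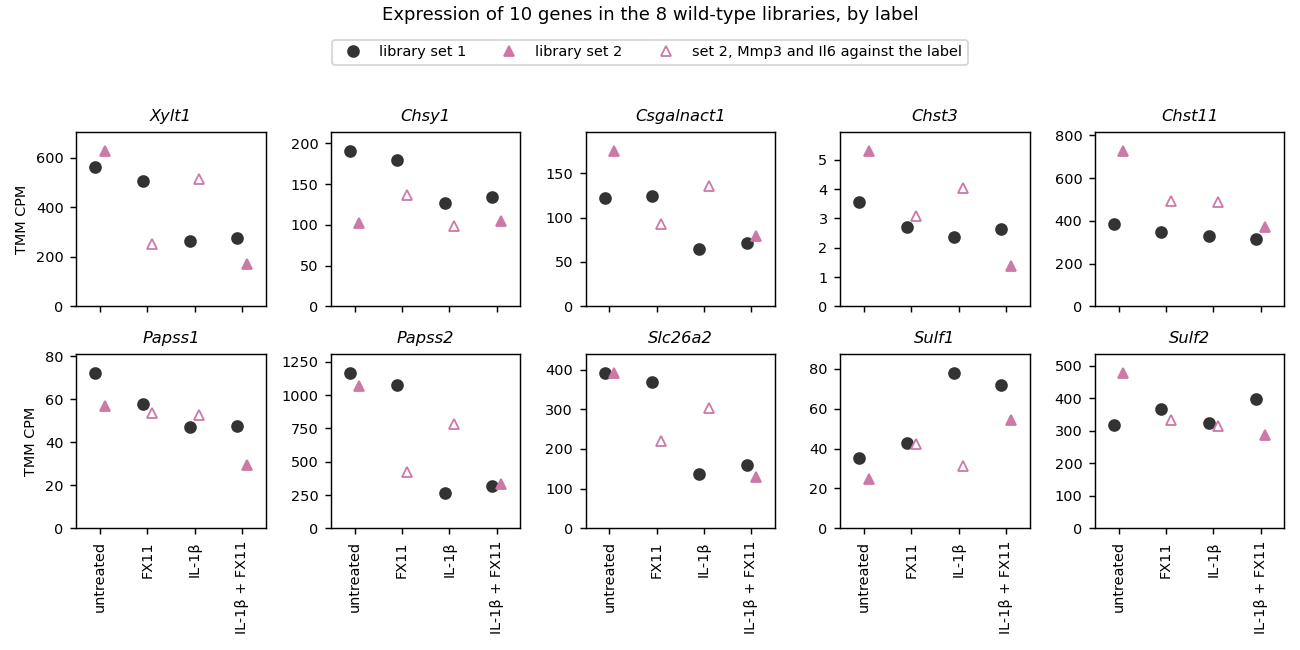
TMM-scaled CPM (vertical axis, from 0) of the 10 genes in the 8 wild-type libraries by label (horizontal axis), with circles for set 1, triangles for set 2 and open triangles for the libraries whose Mmp3 and Il6 levels go against the label. For Papss2 the open triangles sit at 425 CPM above FX11 and 782 CPM above IL-1β, against 1079 and 268 CPM in set 1.

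Across the 24 libraries of the floxed lines, which share lines, library sets and treatments, the genes with the most similar log2 CPM were named from 9164 genes with a mean of at least 10 CPM. They were Phyh (Pearson's r = 0.995) and Panx3 (0.994) for Papss2, Zfp385b (0.993) and Ucma (0.99), a cartilage matrix protein, for Csgalnact1, and Msi2 (0.992) and Sparc (0.989) for Slc26a2. Meltf (0.984) and S100b (0.984) were most like Xylt1, and Cpe (0.979) and Slc44a2 (0.977) most like Chst11. For Sulf1 they were Cited2 (0.977) and Rapgef2 (0.966), for Papss1 Pth1r (0.965), the parathyroid hormone receptor, and Fam20b (0.957), the linker xylose kinase. For Chst3 they were Pdlim2 (0.952) and Cep120 (0.938), and for Chsy1 Impad1 (0.936), which removes a byproduct of sulfation, and Soat1 (0.935). For Sulf2 they were Cdc42bpg (0.931) and St14 (0.927). Among the 10 genes themselves the highest correlation was that of Csgalnact1 with Papss2 (0.982) and the lowest that of Chst3 with Sulf1 (-0.834). These values are descriptions over libraries that are not independent.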

How the data were processed

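RNA was sequenced after ribosomal depletion from 32 libraries in 16 groups of 2. The authors aligned reads with STAR to GRCm38 and deposited counts of uniquely aligned, unambiguous reads per Ensembl gene from featureCounts. The submitters' processing notes name STAR 2.0.4b and featureCounts 1.45, while the paper's methods name another version of each. Strand use is not given in the sources used here. Deposited CPM equalled the count divided by the library total, to within 4.95e-10, and deposited RPKM additionally divides by gene length; neither entered a test.

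Gene names came from GENCODE M21, which named 40340 of 41388 identifiers. After 355 ribosomal RNA genes were left out, counts were scaled by TMM and tested with edgeR 4.0.16 (quasi-likelihood F-test, R 4.3.3) with Benjamini-Hochberg adjustment over all genes tested, and genes at an adjusted p of 0.05 or less were called. Genes needed more than 1 CPM in at least 1 library, or in at least 5 for the 12 GFP libraries, where line and library set were covariates. Differences between lines were tested over 24 libraries with the library set held. Likeness used log2 of CPM plus 0.5. Statistical scripts were tested on counts simulated with the spread of these libraries, with known changes in 100 genes of each size. No other gene was changed, so far fewer genes changed than were called in the same comparisons of the floxed lines. The shares recovered need not hold in the data for that reason. A log2 change of 1 was recovered for 100% with IL-1β in GFP cells of 3 lines. It was recovered for 91% to 96% with Cre under IL-1β and 0% with IL-1β in wild-type cells. For a log2 change of 0.5 these were 94%, 37% to 45% and 0%. For the Cre effect under IL-1β in Nfkbiz f/f against Ldha f/f they were 89% and 28%. Unchanged genes made up 17 of 145 calls with Cre under IL-1β in Ldha f/f, 5 of 146 in Nampt f/f and 7 of 142 in Nfkbiz f/f. They made up 11 of 205 calls with IL-1β in GFP cells of 3 lines and 7 of 124 for Nfkbiz f/f against Ldha f/f. The largest of these shares, that in Ldha f/f, lay above the 0.05 at which genes were called. Depth ran from 15830658 to 39959888 counts, so that counting error bore mainly on Chst3.

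The members and lists were chosen with earlier results of these data known. Further genes were named if called with IL-1β over the 3 lines at a log2 fold change of at least 1 in size, or if among the 3 largest changes with Cre under IL-1β in a line. A gene that met this rule is not reported here. Values for 2 libraries per group were compared before use, and no pair agreed within sampling noise. Same-numbered libraries of Ldha f/f and Nampt f/f share a library set in the titles, and their deviations from the group means correlated at 0.428 to 0.694 and 0.489 to 0.647, so the block stands beside results that it changed. The alternatives were DESeq2 1.42.0, limma 3.58.1 with voom and quality weights, RLE scaling, leaving out ribosomal protein genes and Gm26917, no expression filter, a replicate block, 24 libraries of the floxed lines in one model and leaving out each library. Wild-type comparisons were also run without the libraries that go against their labels, and differences from Nfkbiz f/f within library set 2, both chosen after seeing the data.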

Additional observations from a re-analysis of the deposited data

Results flagged for a closer look

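The results here were singled out because an effect differed between groups when the difference itself was tested with edgeR, at an adjusted p of 0.05 or less. All values are differences between log2 fold changes, each from 2 libraries per group. The response to IL-1β with Cre minus that with GFP was -1.71 for Sulf1, -1.42 for Csgalnact1, -0.88 for Papss2, 1.01 for Chst3 and 0.48 for Sulf2 in Ldha f/f. In Nampt f/f it was -2.01 for Sulf1, -1.17 for Csgalnact1, -0.86 for Papss2, 0.46 for Sulf2 and 0.43 for Chst11.

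The effect of Cre with IL-1β in Nfkbiz f/f minus that in Ldha f/f was 2.38 for Sulf1, 2.35 for Csgalnact1, 1.76 for Papss2, 0.70 for Slc26a2, 0.57 for Xylt1 and -0.55 for Sulf2. Nfkbiz f/f minus Nampt f/f gave 2.90 for Sulf1, 2.23 for Csgalnact1, 2.05 for Papss2, 0.65 for Slc26a2, 0.65 for Xylt1, -0.68 for Sulf2 and -0.31 for Chst11, and Nampt f/f minus Ldha f/f gave -0.52 for Sulf1. That last call was lost with the replicate number as a block (adjusted p = 0.0602, edgeR's quasi-likelihood test), without a filter (0.074) and in all 8 refits that left out 1 library (0.109 to 0.191), and the Chst11 call in 4 of 8 (0.0547 to 0.0969).

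Without IL-1β the effect of Cre in Nfkbiz f/f minus that in Ldha f/f was 0.73 for Sulf1, 0.72 for Csgalnact1 and 0.53 for Papss2, and minus that in Nampt f/f it was 0.96 for Sulf1, 0.85 for Csgalnact1, 0.85 for Papss2, 0.47 for Slc26a2 and -0.46 for Sulf2. Leaving out 1 library took the Papss2 call against Ldha f/f in 7 of 8 refits (adjusted p = 0.0542 to 0.115, edgeR's quasi-likelihood test) and the Sulf2 call in 5 of 8 (0.0543 to 0.0891).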

How the results depend on the processing

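Of the 104 calls of the 10 genes in comparisons of the floxed lines, DESeq2, limma, RLE scaling and leaving out ribosomal protein genes and Gm26917 kept 104 each, no expression filter kept 103, the replicate block 102, and 24 libraries in one model 72 of 72. Under these settings and with 1 library left out, 0 of the 104 estimates changed sign, and 46 of the 156 estimates of the 10 genes that were not called did so in at least 1, wild-type comparisons included. The number of the 10 genes called for the difference in IL-1β response in Nfkbiz f/f was 0 and became 1 with DESeq2, 1 with limma, 3 without a filter and 3 with 24 libraries in one model. The difference in IL-1β response between Nfkbiz f/f and Nampt f/f went from 0 to 1 with limma, and the Cre effect under IL-1β in Nampt f/f against Ldha f/f from 1 to 0 without a filter and with the block; the cause was not tested. Within library set 2 the number for Cre without IL-1β went from 3 to 0 for Nfkbiz f/f against Ldha f/f and from 5 to 1 against Nampt f/f, with 16 libraries in place of 24. Leaving out 1 library gave 4 to 7 for Cre without IL-1β in Ldha f/f, 3 to 5 for its difference in IL-1β response, 2 to 5 for Cre under IL-1β in Nfkbiz f/f, 0 to 1 for its difference in response, 0 to 1 for the IL-1β response of Nfkbiz f/f against Nampt f/f, 3 to 5 for their Cre effect without IL-1β, and 0 to 0 for the Cre effect under IL-1β of Nampt f/f against Ldha f/f. Over all genes, calls in Nfkbiz f/f went from 40 to 71 (DESeq2), 170 (no filter) and 256 (one model) for Cre without IL-1β, from 2666 to 4366 (one model) for Cre under IL-1β and from 797 to 1325 (no filter) and 1861 (one model) for the difference in response, and from 877 to 1463 (one model) for Cre without IL-1β in Ldha f/f. For Nampt f/f against Ldha f/f they went from 2 to 11 (DESeq2), 32 (limma) and 47 (no filter) for the IL-1β response, from 15 to 32 (limma) and 59 (no filter) for Cre without and from 90 to 183, 666 and 353 in that order for Cre under IL-1β. For Nfkbiz f/f they went from 404 to 661 (limma) against Ldha f/f and from 670 to 1233 (limma) and 1032 (no filter) against Nampt f/f for the IL-1β response, and from 317 to 511 (no filter) against Ldha f/f for Cre without IL-1β. In wild-type cells DESeq2 called 6, 2, 153 and 1 genes, against 0 by the quasi-likelihood test in each, for IL-1β, FX11, both agents and FX11 added to IL-1β. The replicate number does not pair Nfkbiz f/f libraries (correlations -0.393 to 0.129), where it took the call of Sulf2 with Cre under IL-1β (adjusted p = 0.0511, edgeR's quasi-likelihood test). Outside the values given with the results, the block changed no other call of the 10 genes in Ldha f/f and Nampt f/f.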
